A study of Mus musculus with 18 samples.

Results

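Flt3 and Dntt double-positive progenitors were taken from bone marrow cells of female C57BL/6 mice sorted as lineage-negative and cKit (Cd117) positive, the LK fraction, which holds stem and progenitor cells. Single-cell RNA libraries, which read the 3' end of each transcript, were made from 6 untreated mice, 3 young (8 weeks; mice 1, 3 and 5) and 3 aged (72 weeks; mice 2, 4 and 6), with 1 library per mouse. A cell was counted as double-positive when it held at least 1 unique molecular identifier (UMI, a count of captured RNA molecules) of *Flt3* and at least 1 of *Dntt*, 0 of *Procr*, 0 of *Klf1*, at most 2 of *Pf4* and fewer than 100 of *Igkc*. The limits leave out cells with transcripts of stem cells (*Procr*), erythroid cells (*Klf1*), megakaryocytes (*Pf4*) and plasma cells (*Igkc*). The rule took 302 of 8436 cells, 3.58% of all. These 6 genes chose the cells, and their levels are therefore given as a description with no test. Of the markers of such cells that the rule did not use, *Satb1* was higher than in the other LK cells in 6 of 6 mice and *Ltb* in 4 of 6.

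Flt3 is a receptor tyrosine kinase for the cytokine Flt3 ligand, and its appearance marks multipotent progenitors that turn away from the megakaryocyte and erythroid fates. *Dntt* encodes terminal deoxynucleotidyl transferase, the polymerase that adds nucleotides without a template at the joints of rearranging antigen receptor genes. It is one of the earliest genes switched on along the lymphoid path, before the B or T lineage is chosen. Progenitors with both transcripts are known as lymphoid-primed, and many of them can still give granulocytes and monocytes.

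The gene that decides membership is read as a single value, although it has several transcript forms. The deposited annotation places *Dntt* at chr19:41029382-41059510 (GRCm38, plus strand) and lists 6 transcripts, of which 3 were added from the study's long reads. Transcript Dntt-201 and one of the added transcripts hold an exon of 60 bases that Dntt-202 lacks. The exon is number 11 in Dntt-201 and its 60 bases make 20 codons with none left over, so the frame is kept. It is shown because it separates the long form of the enzyme from the short one (chr19:41058567-41058626, plus strand, cut from the Gencode M21 sequence of transcript Dntt-201):
Dntt exon: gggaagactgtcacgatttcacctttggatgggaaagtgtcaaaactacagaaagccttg
The UMIs are counted per gene, so *Dntt* values below add up all forms. *Flt3* lies at chr5:147330741-147400489 on the minus strand, and 1 of its 3 listed transcripts was added from the long reads.

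Of all LK cells, 1153 had a *Flt3* UMI and 645 a *Dntt* UMI, and 331 had both. The other limits removed 29 of these 331 cells, of which 18 had *Klf1*, 11 *Procr*, 2 more than 2 UMIs of *Pf4* and 1 at least 100 UMIs of *Igkc*. A double-positive cell held 1 to 39 *Dntt* UMIs with a median of 3, and 1 to 6 *Flt3* UMIs with a median of 1. In 102 cells *Dntt* was read once, in 156 cells (51.7%) at least 3 times. In 62 cells both genes were read once, so a single molecule less of either would have put these cells outside. Among 1248 erythroid cells, defined by a *Klf1* and a *Car1* UMI, 3.12% had a *Dntt* UMI, 4.89% a *Flt3* UMI and 0.801% both, at a median of 8412.5 UMIs per cell against 6325.5 in the double-positive cells. These are the shares in a cell type that should lack both transcripts. No doublet caller was used. Double-positive cells above the 95th percentile of UMIs in their mouse numbered 6 and were left out as an alternative.

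Cells on either side of the thresholds differed by degree. The 62 cells with a single UMI of each gene held a pooled 41.5 CPM (UMIs of the gene per 1000000 UMIs in the sum) of *Satb1*, 219 of *Wfdc17* and 1267 of *Mpo*. The 691 cells with *Flt3* and no *Dntt* UMI that met the other limits held 33.2, 64.0 and 3188 CPM of these genes. The 251 cells with *Dntt* and no *Flt3* UMI held 49.6, 183 and 1837 CPM. The 29 cells removed by the other limits held 62.0 CPM of *Satb1*, 380 of *Wfdc17* and 951 of *Mpo*. *Mpo* was highest where *Dntt* was missing.

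The libraries held 3628043 to 17585424 UMIs, and the double-positive cells of a mouse 142013 to 652807. Mice 1 and 2 stood apart in *Cd74*, but not in every transcript of mature cells. The other LK cells held 303 CPM of *Cd74* in mouse 1 and 864 in mouse 2, against 1.99 to 61.3 in mice 3 to 6. Summed over 11 B lineage genes, the other LK cells held 10258 CPM in mouse 2, 1357 in mouse 4 and 1250 in mouse 1. Mouse 2 was richest in immunoglobulin RNA, and each of its 76 double-positive cells had an *Igkc* UMI, against 3 of 36 in mouse 3. A total of 42 cell barcodes occurred in more than 1 library, and 5 double-positive cells carried one of them.

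The first comparison asked whether the share of double-positive cells changed with age. Double-positive cells made up 3.98% of LK cells in young mouse 1 (66 of 1659), 2.35% in mouse 3 (36 of 1533) and 2.62% in mouse 5 (25 of 956). They made up 4.502% in aged mouse 2 (76 of 1688), 3.86% in mouse 4 (74 of 1919) and 3.67% in mouse 6 (25 of 681). The 95% Wilson intervals of single mice reached from 1.70 to 3.23% in mouse 3 up to 3.61 to 5.60% in mouse 2, which covers counting error only. The aged mean was the higher one, at 4.01% ± 0.436 (SD, n = 3) against 2.98% ± 0.874 in young mice (n = 3), but young mouse 1 lay above aged mice 4 and 6. The difference of 1.03 percentage points had p = 0.3 in a two-sided exact permutation test, for which 0.1 is the smallest p that 3 against 3 mice can give. With mice 1 and 2 compared alone the aged mouse was higher (4.502 against 3.98%), and with them left out the means were 3.76% in aged and 2.48% in young mice.

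**Figure D1:**
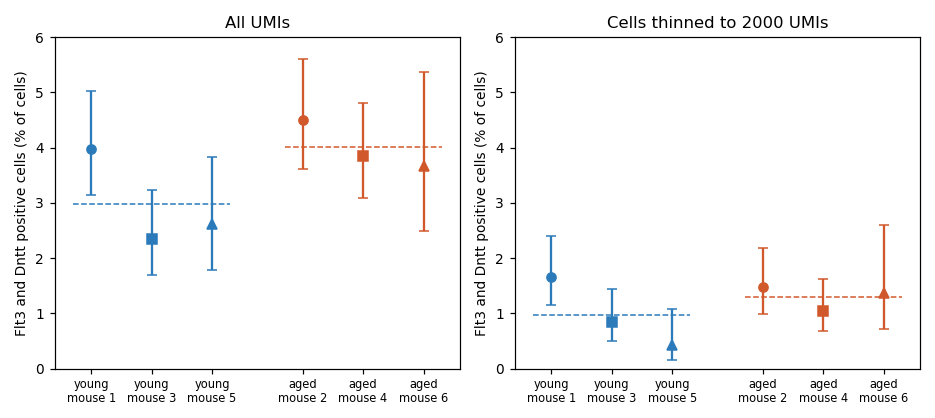
Share of Flt3 and Dntt double-positive cells in each mouse, in percent of its LK cells, with all UMIs (left) and after each cell was thinned to 2000 UMIs and the rule applied again (right). Points are mice with 95% Wilson intervals and dashed lines are the means of 3 mice; the young and aged mice overlap in both panels.

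A rule on single UMIs depends on depth, and the shares fell when every cell was thinned to 2000 UMIs. They were then 1.66, 0.848 and 0.424% in young mice 1, 3 and 5 and 1.47, 1.05 and 1.38% in aged mice 2, 4 and 6, with means of 0.979% ± 0.630 and 1.30% ± 0.220 (SD, n = 3 each; exact permutation p = 0.5). Among cells with a *Flt3* UMI that met the limits, 32.0, 33.0 and 21.9% were double-positive in the young mice and 27.9, 34.3 and 32.9% in the aged (means 29.0% ± 6.14 and 31.7% ± 3.32, exact permutation p = 0.6). Neither measure separated the ages.

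What the double-positive cells express was compared with the other 8134 LK cells of the same mouse, as UMIs summed per mouse and tested with edgeR's quasi-likelihood test with the mouse as a block. Of 10575 genes tested outside the rule, 657 (6.21%) were higher and 973 (9.20%) lower at an adjusted p under 0.05 (Benjamini-Hochberg). Unscaled library sizes, without TMM, gave 803 higher and 748 lower. DESeq2, which differs in its scaling and in its test, gave 560 to 484. Leaving out aged mouse 4 gave 434 higher and 714 lower. Without the mouse block 363 genes were higher and 368 lower. After thinning the rule was applied again, which left from 4 (mouse 5) to 27 (mouse 1) double-positive cells per mouse. With 8095 genes tested, 67 were then higher and 369 lower. These counts rest on fewer cells as well as on less depth.

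Among lymphoid genes the rise was broad. Of 17 early lymphoid genes that could be tested, 13 were higher and none lower, and their median log2 fold change was 1.02 against -0.03 over all genes tested. *Satb1*, a chromatin organiser needed for lymphoid differentiation, was at 74.4, 91.9 and 50.7 CPM in young mice 1, 3 and 5 and at 72.9, 87.3 and 42.2 CPM in aged mice 2, 4 and 6. In the other LK cells it lay between 14.4 and 20.2 CPM, so each mouse's double-positive cells stood above (log2 fold change 2.11 ± 0.17 SE, adjusted p = 1.8e-19, edgeR). *Notch1*, the receptor whose signal starts the T lineage, was at 15.98 to 55.8 CPM against 4.73 to 8.32 CPM, again higher in 6 of 6 mice (2.04 ± 0.27, adjusted p = 2.3e-09). *Mef2c*, a transcription factor that favours lymphoid over myeloid fate, was at 225 to 352 CPM against 71.05 to 177 CPM (1.27 ± 0.09, adjusted p = 3.6e-23).

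*Ltb*, which encodes lymphotoxin beta and is used as a marker of these cells, was less even. Its level was 53.2, 3.99 and 35.5 CPM in young mice 1, 3 and 5 and 40.7, 42.9 and 0 CPM in aged mice 2, 4 and 6. It exceeded the other LK cells in 4 of 6 mice and lay below them in mice 3 and 6 (0.85 ± 0.22, adjusted p = 0.0027). A *Ltb* UMI was seen in 16.6% of double-positive cells and in 4.01% of erythroid cells, against 37.4 and 4.17% for *Satb1*.

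Other early lymphoid genes covered surface receptors and regulators. *Cd27*, a co-stimulatory receptor, was higher by 1.14 ± 0.10 on the log2 scale and *Cd52*, a surface glycoprotein of lymphocytes, by 1.02 ± 0.09. *Tcf4*, an E protein that drives plasmacytoid dendritic cells, was higher by 1.30 ± 0.15 and *Ikzf1* (Ikaros) by 0.53 ± 0.13. All of these passed the test. *Tcf3*, the E protein E2A, was at -0.08 ± 0.13 and *Bcl11a* at 0.01, and neither passed.

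Several genes of the later lymphoid path were rare. *Il7r*, the interleukin 7 receptor of common lymphoid progenitors, had a UMI in 11 of 302 double-positive cells (3.64%) and in 0.0801% of erythroid cells. Its sums were 5.31, 7.99 and 0 CPM in the young and 6.43, 10.7 and 0 CPM in the aged mice, against a mean of 0.262 CPM in the other LK cells (4.43 ± 0.81, adjusted p = 1.2e-05). *Rag2*, a subunit of the recombinase that cuts antigen receptor genes, had a UMI in 10 cells (3.31%), and *Ccr7*, a homing receptor of lymphocytes, rose as well (3.51 ± 0.88 and 4.38 ± 0.88). Of 11 B lineage genes in the table, 3 had 0 UMIs in the 302 cells (*Cd79a*, *Vpreb3* and *Igll1*). *Cd79b*, a chain of the B cell receptor, was read in 96 cells (31.8%), against 28.5% of Dntt-negative and 10.0% of erythroid cells, and did not pass (0.36 ± 0.16, adjusted p = 0.13). *Ighm* was read in 258 cells, *Blnk* in 13, *Vpreb1* in 6, *Ly6d* in 5 and *Ebf1* in 3. Of 13 T, NK and ILC genes, 5 had 0 UMIs, among them *Tcf7* and *Cd3g*, while *Lck* was read in 49 cells, *Gata3* in 7 and *Cd3d* in 2.

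The 12 named genes with the largest rise came mostly from outside the list. *Wfdc17*, which encodes a small secreted protein with a whey acidic protein domain, led them. It was at 399, 463 and 274 CPM in young mice 1, 3 and 5 and at 154, 153 and 275 CPM in aged mice 2, 4 and 6, where the other LK cells held 17.5 to 43.8 CPM (3.16 ± 0.11, adjusted p = 7.3e-44). *Il12a*, the p35 chain of interleukin 12, was at 138, 15.98 and 55.8 CPM in the young and 75.0, 99.6 and 113 CPM in the aged mice. Young mouse 3 was low in *Il12a* in every cell group, with 3.05 CPM in its other LK cells against 11.9 to 16.4 CPM elsewhere, and the log2 fold change was 2.68 ± 0.16 (adjusted p = 4.6e-26).

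*Lck*, the kinase of the T cell receptor, was at 11.98 to 37.2 CPM in double-positive cells and at 2.87 to 4.07 CPM in the other LK cells (2.72 ± 0.31). *Myl10*, which encodes a myosin light chain, was at 91.3 to 394 CPM against 21.2 to 72.4 CPM (2.37 ± 0.11). The muscle cytochrome oxidase subunit gene *Cox6a2* (2.94 ± 0.26), *Gm5111* (2.57 ± 0.21), *Shisa8* (2.35 ± 0.23), *N4bp3* (2.32 ± 0.31) and the calponin gene *Cnn3* (2.10 ± 0.15) completed the coding and long RNA genes of this group. A direction shared by all 6 mice was part of the rule that named these genes.

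The other named genes overlap genes already described. *C230085N15Rik* (2.91 ± 0.34) lies at chr17:51757295-51761621, wholly within *Satb1* (chr17:51736187-51829497) and on the same strand. *Gm26597* (2.25 ± 0.28) lies at chr5:147399554-147401917 on the strand opposite to *Flt3* and overlaps its 5' end, and *Flt3* chose the cells. The counts of *C230085N15Rik* may share reads with *Satb1*, which is on the same strand. Whether the *Gm26597* counts are independent of *Flt3* was not tested, and both genes' values are uncertain.

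The E-box, read as CAGGTG on one strand and thus as CACCTG on the other, to which the E proteins encoded by *Tcf3* and *Tcf4* bind, was looked for in the 250 bases before each RefSeq transcript start of these genes, because *Tcf4* rose with them. Of 18 genes (the named risers of both comparisons with *Satb1*, *Ltb* and *Notch1*), 14 had a RefSeq window and 5 of these held the motif in at least 1 window, where 19.4% of all 27025 genes with a window did. A gene with several starts has more windows: the match was in 1 of 5 windows of *Satb1*, in 1 of 2 each of *Lck*, *Il12a* and *Gm26597*, and in the single window of *Ltb*. These starts can differ from the gene bounds in the deposited annotation, in which the *Satb1* match lies inside the gene. Over all 32851 windows 17.2% held the motif, and whether the named genes hold it more often was not tested. No other motif was searched. The 30 bases around each match are shown 5′ to 3′ on the gene's strand (RefSeq, GRCm38.p6), with the E-box in capitals:
Satb1 (chr17:51826743-51826772, minus): gctgtctgactcCACCTGcttgtgacttta
Ltb (chr17:35194429-35194458, plus): ccgggcagggggCAGGTGtgtgggtctgcg
Lck (chr4:129558418-129558447, minus): gtttgcccatccCAGGTGggagggtgggac
Il12a (chr3:68690547-68690576, plus): ctggggagttatCAGGTGttagcctgttac
Gm26597 (chr5:147400327-147400356, plus): cgccccgggctgCAGGTGgctcgctgaagg
A match in these letters is a description of the window and does not show that a factor binds there. The Gm26597 stretch falls inside both *Gm26597* and *Flt3* as annotated.

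Myeloid genes ran the other way, with exceptions. Of 17 granulocyte and monocyte genes, 12 were lower and 2 higher, with a median log2 fold change of -1.25. *Elane* (neutrophil elastase) was at 122, 172 and 157 CPM in young mice 1, 3 and 5 and at 407, 87.3 and 275 CPM in aged mice 2, 4 and 6, where the other LK cells held 1430 to 5069 CPM (-4.14 ± 0.12, adjusted p = 1.4e-50). *Mpo* (myeloperoxidase) was at 694 to 1366 CPM against 1916 to 5225 CPM (-1.85 ± 0.08), and was still read in 86.4% of double-positive cells. *Irf8*, a factor of monocytes and dendritic cells, was higher, at 172 to 397 CPM against 83.0 to 199 CPM (1.18 ± 0.09, adjusted p = 2.0e-19), as was *Ly86* (0.85 ± 0.20). *Lyz2* and the receptors *Csf3r* and *Csf1r* did not pass.

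**Figure D2:**
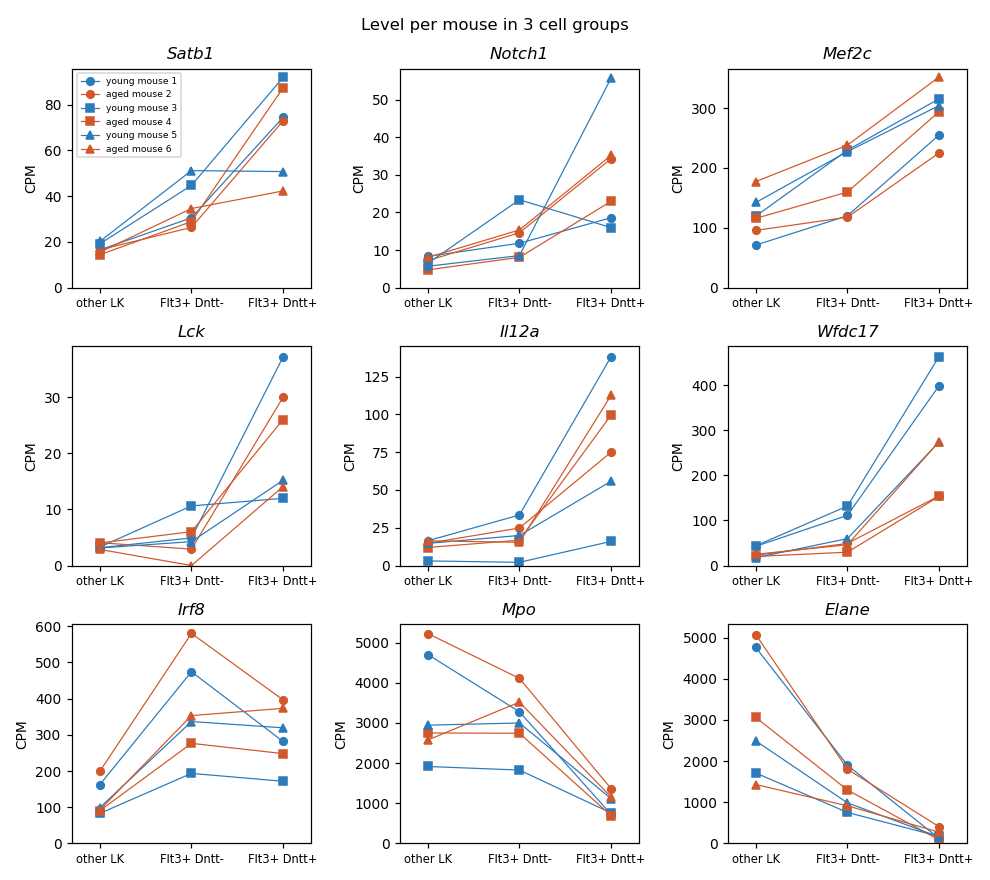
Level of 9 genes in CPM, from UMIs summed per mouse, in the other LK cells, in Flt3-positive cells without a Dntt UMI and in Flt3 and Dntt double-positive cells. Lines join the values of 1 mouse. Satb1, Notch1, Mef2c, Lck, Il12a and Wfdc17 are higher in double-positive than in other LK cells in all 6 mice, Mpo and Elane are lower in all 6, and Irf8 is lower than in Flt3-positive Dntt-negative cells in 5 of 6.

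The 8 named genes with the largest fall, among those of at least 20 CPM on 1 side that moved alike in 6 mice, are known from other mature or committed cells. Besides *Elane* they were the erythroid genes *Mfsd2b* and *Tspo2*, the immunoglobulin gene *Igha*, the eosinophil granule gene *Prg2*, and the granulocyte genes *Trem3*, *S100a8* and *Igsf6*, with log2 fold changes from -4.65 to -4.10. All 11 megakaryocyte and erythroid genes and all 8 mast cell, basophil and eosinophil genes tested were lower. The limits on *Klf1* and *Pf4* removed erythroid cells and megakaryocytes by construction, so the count for the former list follows in part from the rule. The limit on *Igkc* left cells rich in its UMIs to the other LK cells only. The fall in the sum of *Igha* may therefore follow in part from the rule, which was not tested. After thinning, an *Igha* UMI was read in 5.44% of double-positive cells and in 5.99% of the other LK cells.

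Of 11 stem cell genes tested, 5 were lower, among them *Gata2* and *Mllt3*, and none higher, in cells from which *Procr* was barred. Of 13 multipotent progenitor genes, 7 were higher and 1 lower. *Cd34* was at 451 to 536 CPM against 189 to 231 CPM (1.17 ± 0.07) and *Hoxa9*, a homeobox factor of early progenitors, was higher by 1.18 ± 0.18. *Ctla2a*, *Lmo2*, *Cd48* and *Adgrg1* were higher by 0.29 to 0.48, and *Myb* was lower by 0.36.

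Genes that act with Flt3 and Dntt changed less. The share over all genes tested was 6.21% higher and 9.20% lower. Of 14 tested genes of Flt3 signalling, 3 were higher (*Pik3r1*, *Ptpn6* and *Socs3*) and none lower, and the median was 0.02. Of 10 tested genes of V(D)J recombination and end joining, *Rag2* and *Xrcc6*, which encodes the Ku70 end-binding protein, were higher and the other 8 did not pass. Of 16 cell division genes, 3 were higher (*Top2a*, *Nusap1* and *Mcm6*, by 0.23 to 0.57) and none lower. Among 18 cytokine receptors, *Il7r*, *Il6ra* and *Il6st* were higher and 4 were lower, among them *Epor*, *Csf2rb* and *Ifngr1*. Of 12 immediate early genes, whose level can move with handling, 4 were higher, and their levels also differed between mice, with *Fos* at 98.6 CPM in aged mouse 2 and 895 CPM in aged mouse 4.

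Few genes of the later lineage lists could be tested. Over all genes tested, 6.21% were higher and 9.20% lower. Of 5 tested B lineage genes, *Blnk*, an adaptor of B cell receptor signalling, was higher and the sum of *Ighm* lower. An *Ighm* UMI was still read in more double-positive cells, 85.4% against 43.4% of the other LK cells and 35.3% of erythroid cells. After thinning these shares were 59.2, 24.2 and 14.4%. Of 6 T, NK and ILC genes, *Lck* was higher, *Nkg7* was lower, and *Zbtb16* was lower with 0 UMIs in double-positive cells. Of 6 dendritic cell and class II genes, *Bst2* was higher by 0.31 and the sums of *Cd74*, *H2-Aa* and *H2-Eb1* were lower. The share of cells with a UMI of *Cd74*, *H2-Aa* and *H2-Eb1* was not lower in double-positive cells. It was 13.9, 15.9 and 10.3%, against 9.36, 7.28 and 5.21% of the other LK cells. After thinning it was 5.44, 6.12 and 6.12% against 5.77, 3.78 and 3.05%, lower for *Cd74* only. Of 85 ribosomal protein genes 7 were higher and 4 lower, of 14 mitochondrially encoded genes 4 were lower, and of 9 genes that the study names for ageing 2 were higher and 4 lower. Beside the shares over all genes, the ribosomal counts are not read as a result about that list.

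Immunoglobulin and class II transcripts need the values of the other cells beside them. *Ighm*, whose sterile transcript is made in early lymphoid cells, was at 590, 276 and 396 CPM in double-positive cells of young mice 1, 3 and 5 and at 804, 452 and 268 CPM in aged mice 2, 4 and 6. The other LK cells held 1185, 58.2 and 56.0 CPM in the young and 10089, 1306 and 418 CPM in the aged mice, so double-positive cells were above them only in mice 3 and 5 (-0.95 ± 0.26, adjusted p = 0.0051). *Cd74*, the class II invariant chain, was at 173 CPM in mouse 1, 62.2 in mouse 2, 46.0 in mouse 4 and 0 to 5.07 in mice 3, 5 and 6 (-1.97 ± 0.20). Of 9 plasma cell genes 5 could be tested, with 4 lower and *Sdc1* higher. The 9 together summed to 55.9 to 309 CPM in double-positive cells and to 71.8 to 3124 CPM in the other LK cells, and *Irf4* was at 0. Cells rich in *Igkc* UMIs were barred by the rule from the double-positive cells only. The falls of the 4 plasma cell genes may therefore follow in part from the rule. The part of RNA from plasma cells in the *Ighm* values was not tested.

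A closer neighbour was the 691 Flt3-positive cells with no Dntt UMI that met the same limits. Of 5863 genes tested, 210 (3.58%) were higher and 200 (3.41%) lower in the double-positive cells (66 and 69 with DESeq2, 47 and 48 without the mouse block, and 122 and 130 without aged mouse 4). The Dntt-negative cells had more UMIs per cell (median 7440 against 6325.5). Cells without *Dntt* RNA and cells in which it was not captured cannot be told apart.

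The lymphoid difference remained in this comparison. Of 13 early lymphoid genes tested, 9 were higher and none lower (median 0.60, against 0.01 over all genes tested). *Satb1* was at 42.2 to 91.9 CPM against 26.3 to 51.2 CPM, higher in 5 of 6 mice (1.18 ± 0.17, adjusted p = 1.9e-05). *Mef2c* (0.76 ± 0.10), *Notch1* (1.19 ± 0.31), *Tcf4* (0.75 ± 0.15), *Cd27* (0.60 ± 0.11) and *Gimap1*, a GTPase of lymphocytes, (1.08 ± 0.17) were higher too, and so was *Ltb* (0.97 ± 0.28, adjusted p = 0.029). *Cd52*, which separated double-positive cells from the rest, was at 0.16 ± 0.09 here and did not pass. *Il7r* was listed in 11 double-positive cells and in 0 of 691 Dntt-negative cells.

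The largest rises repeated genes named above, with *Lck* (2.32 ± 0.40), *Gm5111* (2.27 ± 0.27), *Myl10* (2.15 ± 0.19), *Il12a* (2.08 ± 0.17) and *Wfdc17* (1.99 ± 0.12) in front. *Gimap6*, a second GTPase of this family, was at 57.9 to 151 CPM against 19.2 to 46.8 CPM (1.64 ± 0.18), and *Dok2*, an adaptor of kinase signalling, was higher by 1.52 ± 0.25. *Tnip3*, an inhibitor of NF-kB signalling, rose by 1.80 ± 0.40, and *Shisa8*, *N4bp3*, *9030619P08Rik* and *C230085N15Rik* by 1.30 to 1.73. *Ighm* was higher by 0.87 ± 0.12 in this pair, in 6 of 6 mice.

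Granulocyte and monocyte genes were lower in 13 of 15 tested cases and higher in none (median -1.49). *Irf8* turned round, at 172 to 397 CPM in double-positive cells and 194 to 580 CPM in Dntt-negative cells (-0.33 ± 0.09, adjusted p = 0.019), lower in 5 of 6 mice. *Csf1r*, the receptor of macrophages, was at 4.60 to 42.2 CPM against 29.5 to 56.3 CPM and was lower in 6 of 6 mice (-0.995 ± 0.24). *Igsf6*, *Trem3*, *Ly6c2*, *Elane*, *Hp*, *F13a1*, *Cebpe* and *Ifi30* were the named genes with the largest fall, at -3.42 to -1.92, among those of at least 20 CPM on 1 side that moved alike in 6 mice. Class II and dendritic genes were lower in 5 of 6 cases, but *Cd74* was at 1016 and 1376 CPM in Dntt-negative cells of mice 1 and 2 and at 0 to 16.8 CPM in the other mice. A UMI of *Cd74*, *H2-Aa* and *H2-Eb1* was read in 10.7, 11.3 and 7.67% of Dntt-negative cells, against 13.9, 15.9 and 10.3% of double-positive cells. After thinning these shares were 6.53, 6.38 and 5.34% against 5.44, 6.12 and 6.12%. Cell division genes did not pass in any of 16 cases, and neither did any of 10 Flt3 signalling genes.

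**Figure D3:**
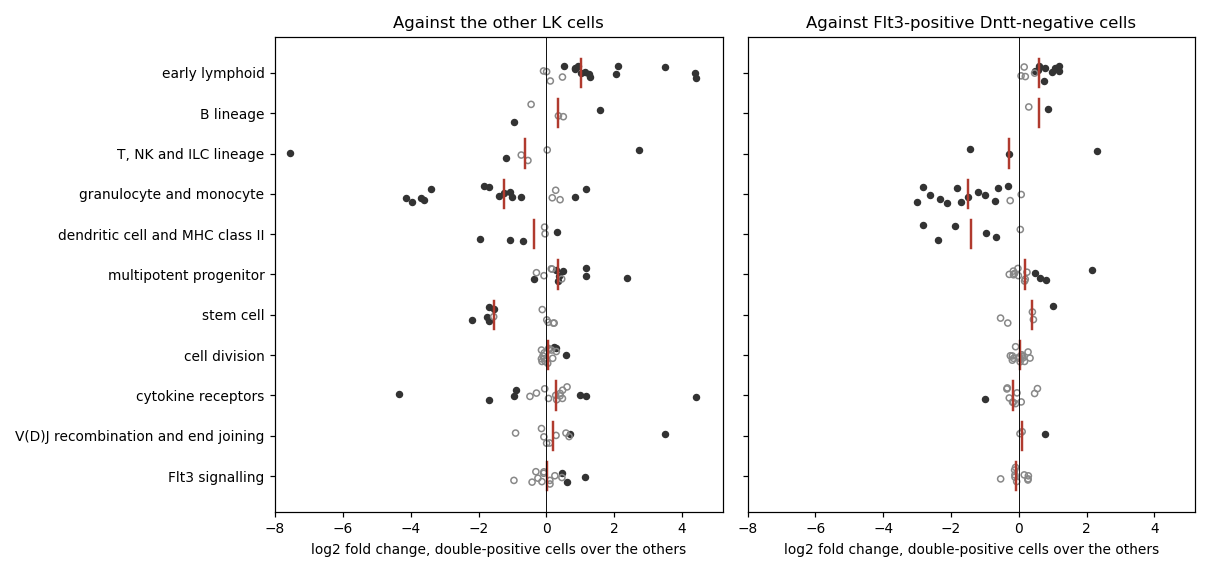
Log2 fold change of the genes of 11 lists in double-positive cells against the other LK cells (left) and against Flt3-positive cells without a Dntt UMI (right). Filled points passed at an adjusted p under 0.05 and open points did not; red bars are the medians of the tested genes, at 1.02 and 0.60 for early lymphoid genes and at -1.25 and -1.49 for granulocyte and monocyte genes. The leftmost point is Zbtb16, which had 0 UMIs in double-positive cells and whose fitted value is no bound.

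Lymphoid and granule transcripts were found in the same cells. Any of *Satb1*, *Notch1*, *Il12a*, *Lck*, *Il7r*, *Rag2* or *Ccr7* was read in 213 of 302 double-positive cells (70.5%), and any of *Mpo*, *Elane*, *Ctsg* or *Prtn3* in 300. Of the first set, *Il12a* and *Lck* are not on the early lymphoid list. Both kinds were read in 211 cells. A granule gene was also read in all 89 cells without a lymphoid gene, so the overlap was set by the granule share. After thinning to 2000 UMIs, 115 of 294 cells (39.1%) had a lymphoid gene, 270 (91.8%) a granule gene and 110 (37.4%) both. A granule gene was then read in 160 of 179 cells without a lymphoid gene (89.4%). *Mpo* was also read in 74.2% of erythroid cells (40.1% after thinning, against 63.6% of double-positive cells), so a granule UMI in a cell does not by itself show expression. The pair *Irf8* and *Csf1r* was read in 26 double-positive cells (8.61%) and the pair *Myl10* and *Ctla2a* in 131 (43.4%).

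At equal depth the detection rates were lower in every cell group. *Satb1* was then read in 17.0% of double-positive, 6.08% of Dntt-negative and 1.12% of erythroid cells, and *Il12a* in 16.7, 3.56 and 1.61%. *Wfdc17* was read in 31.97, 10.5 and 1.45% and *Myl10* in 33.0, 9.64 and 2.89%. *Irf8* was read in 34.7, 38.7 and 5.86%. Between mice the unthinned share reached 47.2% for *Satb1*, and for *Il12a* it ran from 8.33 to 51.5%.

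The double-positive cells also varied with the amount of *Dntt*. Cells with at least 3 *Dntt* UMIs (156) were compared with those that had 1 (102) within each mouse; their median depth was 6603.5 and 6184.5 UMIs. Of 2123 genes tested, 4 were higher (0.188%) and 3 lower (0.141%). *Il12a* was at 203, 26.6 and 70.9 CPM in the *Dntt*-rich cells of young mice 1, 3 and 5 and at 86.1, 150 and 170 CPM in those of aged mice 2, 4 and 6. In cells with 1 *Dntt* UMI it was at 35.7, 11.3 and 48.5 CPM and at 44.4, 25.8 and 50.9 CPM, lower in each mouse (1.78 ± 0.29, adjusted p = 0.0016). *Cox6a2* moved alike, at 17.7 to 106 CPM against 0 to 27.8 CPM (2.29 ± 0.47, adjusted p = 0.020).

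*Ighm* was at 346 to 938 CPM in *Dntt*-rich cells and at 50.9 to 583 CPM in the others, higher in 6 of 6 mice (0.72 ± 0.14, adjusted p = 0.013). *Myl10*, named here after its values were seen, was higher in 5 of 6 mice (1.001 ± 0.22, adjusted p = 0.034). Of the 3 genes that were lower, *Ctsg* (cathepsin G) was at 235 to 744 CPM against 437 to 1604 CPM (-0.90 ± 0.14, adjusted p = 0.0016), *Mpo* at 429 to 1356 CPM against 776 to 1494 CPM (-0.62 ± 0.13, adjusted p = 0.030), and the adaptor complex gene *Ap3s1* fell by 0.83 ± 0.18 (adjusted p = 0.038). The proteases *Elane* (0.40 ± 0.23) and *Prtn3* (-0.51 ± 0.13, adjusted p = 0.098) did not pass. *Satb1*, at 0.95 ± 0.31, did not pass (adjusted p = 0.30), and none of 10 early lymphoid genes did. DESeq2 called 0 genes higher and 1 lower, with 44 at an unadjusted p under 0.05. Without the mouse block edgeR called 0 in either direction (65 under 0.05). Leaving out aged mouse 4 gave 0 higher and 2 lower, aged mouse 2 gave 1 and 2, young mouse 3 gave 6 and 7, young mouse 5 gave 4 and 7, aged mouse 6 gave 4 and 1, and young mouse 1 gave 3 and 2.

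**Figure D4:**
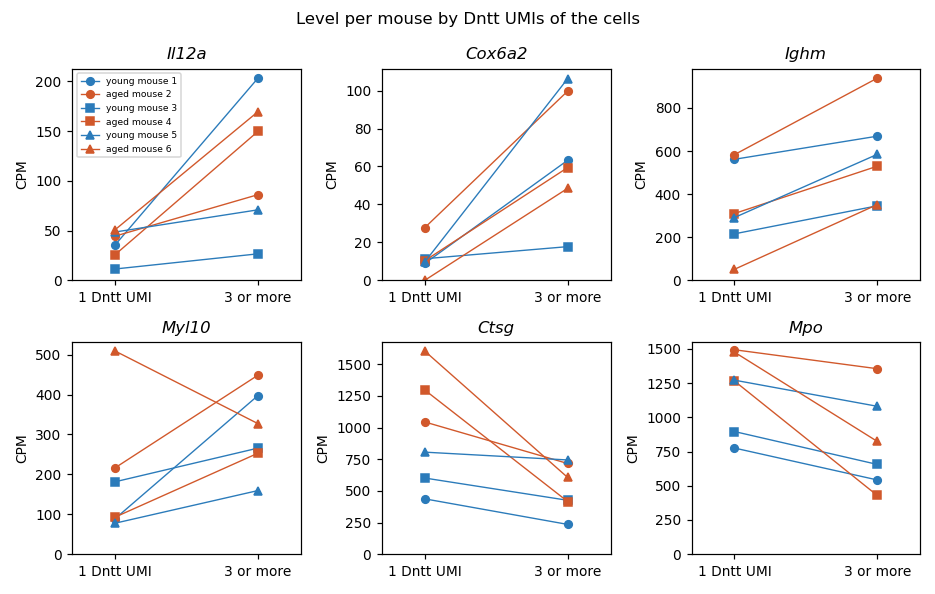
Level of 6 genes in CPM in double-positive cells with 1 Dntt UMI and with 3 or more, for each mouse. Il12a, Cox6a2 and Ighm are higher and Ctsg and Mpo lower with 3 or more Dntt UMIs in all 6 mice, and Myl10 is higher in 5 of 6.

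The last question was whether these cells change with age. Summed over the double-positive cells of each mouse, 3738 genes could be tested, and none passed in either direction with edgeR (0%); 139 had an unadjusted p under 0.05, and DESeq2 also called 0, with 30 under 0.05. With a term for mice 1 and 2 edgeR called 3 higher and 1 lower, and with both mice left out 1 higher (*Snhg9*). With no filter on low counts it called 12 higher and 6 lower. Genes whose 3 aged mice all lay above the 3 young numbered 194 (5.19% of those tested), and 113 (3.02%) lay below. On simulated counts with these means and spreads, 4-fold changes were recovered in 92.4% of cases, 2-fold in 40.3% and 1.5-fold in 7.46% (3741 genes), so smaller changes could pass unseen. Of the calls on those simulated counts, 11.4% were false.

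The early lymphoid genes gave no called difference, with a median of -0.04 over 13 genes against -0.01 over all. *Satb1* was at 72.3 ± 20.7 CPM in young and 67.5 ± 23.0 in aged mice (SD, n = 3 each; edgeR log2 fold change -0.03 ± 0.30 SE), *Mef2c* at 292 ± 32.1 and 290.4 ± 63.6, and *Notch1* at 30.1 ± 22.3 and 30.8 ± 6.81. *Dntt* itself was at 654 ± 317 and 737 ± 94.97 CPM and *Flt3* at 241 ± 49.6 and 260.1 ± 42.4 CPM, given as a description. Summed over the 19 early lymphoid genes in the table, young mice held 1737 ± 193 CPM and aged mice 1666 ± 39.3 CPM.

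Among the 10 genes with the smallest p, none of which passed, were *Mcpt8*, *Gm10443*, *Wfdc17*, *Snhg9*, *Lat*, *Lst1*, *Olfr1369-ps1*, *Prss34* and *AC160336.1*, with unadjusted p from 0.00057 to 0.0040. *Wfdc17* was raised in the double-positive cells but not confined to them, with a UMI in 24.3% of Flt3-positive Dntt-negative cells. In double-positive cells it was at 379 ± 96.3 CPM in young and 194 ± 69.8 in aged mice (-1.12 ± 0.27). Aged mouse 6 and young mouse 5 had nearly the same level (275 and 274 CPM). *Lst1*, a leukocyte transcript of the class III region, was at 95.9 to 127 CPM in young and 55.1 to 70.4 CPM in aged mice (-0.89 ± 0.23). *Lat*, an adaptor of T cell receptor signalling, was at 5.07 to 15.98 CPM in young and 38.6 to 56.3 in aged mice (1.72 ± 0.44). For *Lst1* and *Lat* the ages did not overlap. None of the 7 tested genes that the study names for ageing passed; that list was not chosen independently of these samples.

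*Mcpt8* and *Prss34*, proteases of basophils, had the largest age values of the tested genes outside the rule (2.55 ± 0.57 and 2.82 ± 0.80). Most of their UMIs in aged mice 2 and 4 lay in 1 cell of each mouse. *Mcpt8* was at 50.5, 39.9 and 30.4 CPM in young mice 1, 3 and 5 and at 392.3, 282 and 21.1 CPM in aged mice 2, 4 and 6. One cell of mouse 2 held 137 of its 183 *Mcpt8* UMIs and 221 of its 257 *Prss34* UMIs, and one cell of mouse 4 held 141 of 184 and 189 of 189. The first of these cells had 1 UMI each of *Flt3* and *Dntt*, the second 2 and 16. Without the UMIs of its highest cell in each mouse, *Mcpt8* was at 98.6, 65.9 and 14.1 CPM in aged mice 2, 4 and 6. It was then at 42.5, 28.0 and 15.2 CPM in young mice 1, 3 and 5. No gene passed between ages with the 3 cells holding at least 20 UMIs of the pair left out (134 of 3725 at an unadjusted p under 0.05, edgeR). None had passed with them in either, so that fit does not bear on their part. How these cells came to hold such UMIs was not tested.

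The age effect in double-positive cells was also compared with that in the other LK cells, by the interaction term of edgeR's test. Of 10575 genes, 4 (0.0378%) had a larger and 5 (0.0473%) a smaller age value in double-positive cells, and neither *Satb1* (0.30 ± 0.30) nor *Ltb* (-0.68 ± 0.42) passed. DESeq2 called 0 (110 at an unadjusted p under 0.05). On simulated counts the edgeR term recovered 43.9% of 4-fold and 20.9% of 2-fold differences, so many could pass unseen. The 4 larger ones were *Mcpt8*, *Prss34* and the granule genes *Cpa3* and *Prg2*. None of the 4 was called without the 3 cells above, but the *Prg2* value did not shrink (3.96 with and 4.00 without them).

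**Figure D5:**
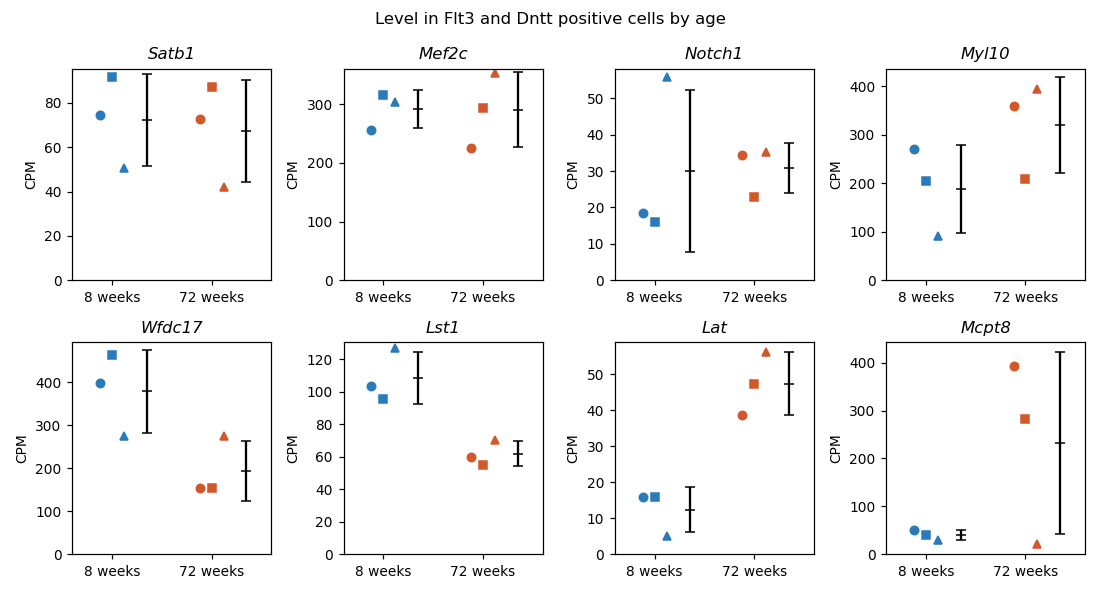
Level of 8 genes in CPM in double-positive cells of young (8 weeks) and aged (72 weeks) mice. Coloured points are mice and black bars the mean and SD of 3 mice; no gene passed the test between ages, and Mcpt8 is high in 2 aged mice, in each of which a single cell holds most of its UMIs.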

How the data were processed

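Short-read libraries of the LK cells of 6 mice were used. The deposited counts are UMIs per gene and cell (17757 genes, 8436 cells), from Cell Ranger 3.0.2 followed by Seurat 3; the authors removed cells below 1000 genes or above 5% mitochondrial counts. Cells were tied to mice by the number that ends each cell name. The deposited annotation of transcripts gave positions only, and the long-read counts were not used here.

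UMIs were summed per mouse and cell group, filtered (filterByExpr), scaled by TMM and tested with edgeR 4.0.16 in R 4.3.3 at an adjusted p under 0.05; DESeq2 1.42.0 was an alternative. Cell groups were compared with the mouse as a block, since both sums come from the same animal. Shares were compared with exact permutation tests (scipy 1.17.1). The 6 genes of the rule stayed in the fits and out of the counts. CPM are UMIs per 1000000 UMIs of a sum, unscaled, and can be compared between samples, not between genes. Thinning drew 2000 UMIs per cell (seed 7). For shares and gene tests the rule was applied again to the thinned counts, so fewer cells entered. Detection rates after thinning kept the cells chosen before it. The model was tested on simulated data. Of the calls there, 4.31% were false against the other LK cells, 7.74% against Dntt-negative cells and 11.4% between ages.

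Named genes are *Flt3*, *Dntt*, *Satb1*, *Ltb*, up to 12 called genes with the largest rise and 8 with the largest fall among those of at least 20 CPM on 1 side that moved alike in 6 mice, the 10 smallest p where ages gave fewer than 10 calls, and examples of the 16 lists. The members and lists were chosen with earlier results of these data known. Another 7 genes of the lists were not analysed here, and some genes that the rule names are not reported here. Intervals cover counting error only. No doublet caller was run.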

Additional observations from a re-analysis of the deposited data

Results flagged for a closer look

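The age effect (aged against young) in double-positive cells differed from that in the other LK cells for 9 of 10575 genes by the interaction term of edgeR's quasi-likelihood test (0.0378% with a larger and 0.0473% with a smaller value in double-positive cells). DESeq2 called 0 of them, with 110 genes at an unadjusted p under 0.05, and 0 were called after thinning.

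The difference in log2 fold change was 4.53 for *Prss34*, 3.58 for *Mcpt8*, 2.01 for *Cpa3*, a mast cell carboxypeptidase, and 3.96 for *Prg2*. Without the 3 double-positive cells rich in *Mcpt8* and *Prss34* these values were 0.26, 0.81, 0.77 and 4.00, and none passed. *Prg2* rested on 45.0 CPM in aged mouse 2, with 0 to 7.04 CPM in the double-positive cells of the other mice.

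*Ighm* differed by -3.18. Its level in the other LK cells was 56.0 to 1185 CPM in young and 418 to 10089 CPM in aged mice, while double-positive cells held 276 to 590 and 268 to 804 CPM. *Cd74* differed by -1.88 and turned to 0.35 without aged mouse 2. *Ly6a*, which encodes Sca-1, differed by -2.04 (77.1, 19.97 and 25.4 CPM in double-positive cells of young mice 1, 3 and 5 against 32.2, 32.2 and 21.1 CPM in aged mice 2, 4 and 6) and by -1.05, without passing, when mice 1 and 2 were left out.

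*Ift74*, a subunit of the ciliary transport complex, differed by -2.39, with 45.2, 11.98 and 65.9 CPM in young and 6.43, 7.66 and 14.1 CPM in aged double-positive cells and 9.75 to 11.7 CPM in the other LK cells of all 6 mice. *Gzmb* differed by -8.92, a value set by the prior count, since its UMIs in double-positive cells were all in young mouse 5, 15 of them in 1 cell; without young mouse 5 the value was -0.28.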

How the results depend on the processing

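The mean share of double-positive cells was higher in aged mice under every alternative run, with exact permutation p from 0.2 to 0.6. These alternatives reuse the same mice. Without young mouse 1 the exact permutation p was 0.2, the smallest that 2 against 3 mice can give (means 2.48% young, 4.01% aged). With mice 1 and 2 left out it was 0.33, the smallest for 2 against 2. After thinning, young mouse 1 (1.66%) lay above each aged mouse. The difference was 0.321 percentage points after thinning, 0.961 with at least 2 *Dntt* UMIs, and 0.713 to 1.53 with single mice left out. No paired analysis was possible because young and aged mice share no replicate numbers; the cell groups were paired by mouse.

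Against the other LK cells (657 genes higher and 973 lower), DESeq2 called 484 lower, thinning left 67 and 369, leaving out mice 1 and 2 gave 622 lower, and no replicate block gave 363 and 368. Single mice left out gave 434 to 615 higher and 714 to 1072 lower. Against Flt3-positive Dntt-negative cells (210 and 200), DESeq2 called 66 and 69, thinning left 6 and 17 of 1357 genes, leaving out mice 1 and 2 gave 103 lower, and no replicate block gave 47 and 48. Single mice left out gave 122 to 196 and 130 to 187, and the lowest count of each of these ranges came without aged mouse 4. No named gene of these comparisons reversed. For *Dntt*-rich cells (4 and 3), DESeq2 called 0 and 1, no filter gave 5 lower, and no replicate block gave 0 each way. Leaving out mice 1 and 2 gave 2 higher. Thinning also gave 0 each way, but that fit held 249 genes and 1 *Dntt*-rich cell in each of mice 5 and 6. Its 0 calls are therefore no check of the main counts. Single mice left out gave 0 to 6 higher and 1 to 7 lower.

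Between ages (0 each way), no filter on low counts called 12 genes higher and 6 lower, a term for mice 1 and 2 called 3 and 1 (the 3 higher were *Mcpt8*, *Prss34* and *Snhg9*), and leaving out both mice called 1 higher (*Snhg9*). Leaving out aged mouse 2 (*Snhg9*) or 6 (*Mcpt8*) gave 1 higher, the others 0. For *Satb1* the age value of -0.03 turned to 0.31 with at least 2 *Dntt* UMIs, 0.011 unscaled, and 0.04, 0.21 and 0.08 without mouse 2, 3 or 6, within a range of -0.30 to 0.21 over single mice left out. *Ltb* turned from 0.08 to -0.082 with DESeq2, -0.36 without mouse 3 and -0.26 without mouse 4 (range -0.36 to 0.84). For the difference of the age effect (4 and 5), DESeq2 and thinning gave 0 each way, leaving out the cells rich in *Mcpt8* gave 0 and 3, and leaving out mice 1 and 2 gave 2 lower. Single mice left out gave 3 to 7 higher and 2 to 9 lower. *Cd74* turned to 0.35 without mouse 2 (range -3.02 to 0.35). After thinning *Gzmb* turned to 0.43, *Satb1* to -0.786 and *Ltb* to 0.50. With single mice left out *Satb1* ran from -0.048 (without mouse 4) to 0.45 and *Ltb* from -1.06 to 0.084 (without mouse 1). The cause was not tested.

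Depth limits what 302 cells can show. The sums of mice 5 and 6 rest on 25 cells each, and genes under about 20 CPM there on a few molecules. Leaving out mice 1 and 2, the unscaled libraries and the cells rich in *Mcpt8* were chosen after seeing the data.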

Other observations

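Cytosolic ribosomal protein genes were slightly higher in double-positive cells than in Flt3-positive Dntt-negative cells, with 18 of 83 tested higher and 0 lower and a median log2 fold change of 0.07. Over all genes tested in this pair, 3.58% were higher and 3.41% lower. Between ages 0 of 82 passed, and 9 had a positive value (median -0.12). Of 28 mitochondrially encoded genes 12 could be tested between ages, 10 had a positive value (median 0.35) and 0 passed. Mitochondrial transcripts made up 0.814, 0.758 and 0.995% of the UMIs of double-positive cells in young mice 1, 3 and 5 and 1.01, 0.744 and 1.43% in aged mice 2, 4 and 6. In double-positive cells *Nr4a1*, an immediate early nuclear receptor, was at 82.7 CPM in aged mouse 4 and at 2.14 to 15.98 CPM in the other mice.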
